A study of Danio rerio with 6 samples.

Results

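Attachment of ubiquitin to proteins runs through an enzyme cascade in which an activating E1 enzyme passes ubiquitin to a conjugating E2 enzyme and an E3 ligase selects the substrate. Cullin ligases use exchangeable substrate receptors, HECT-type and related ligases carry ubiquitin on their own catalytic site, and deubiquitinases remove it again. In animal embryos this system turns over cell-cycle regulators and maternally supplied proteins. The 5 genes described here include no E1 and fall into the later classes: the E2 enzyme ube2h (ENSDARG00000000019), the cullin substrate receptor dcaf8 (ENSDARG00000000324), the E3 ligases mycbp2 (ENSDARG00000001220) and g2e3 (ENSDARG00000001313), and the deubiquitinase usp49 (ENSDARG00000000229). They were taken by name from the 99 genes of the table used here, and 5 of 5 were found.

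Levels were measured by RNA sequencing of whole zebrafish embryos at 4.5 hours post fertilization, at 30% epiboly. MZdgcr8 embryos are maternal zygotic mutants of dgcr8, which encodes the partner of Drosha in the first cut of canonical microRNA precursors, and they were set against wild type. The strain given for both groups is AB, and the mutant allele is not named. Each group had 3 libraries, and each library came from 50 pooled embryos. Nothing in the labels ties a replicate to a clutch of its own, and the p-values therefore cover the spread of these libraries alone, which may be technical. In pooled whole embryos, fewer cells of a type and less RNA per cell cannot be told apart.

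Levels are in FPKM, a fragment count divided by transcript length and by the size of the library, so they can be compared between genes. Averaged over the 6 libraries, 67 of the 99 genes reached 1 FPKM or more, all 5 ubiquitin pathway genes among them, and these 67 were tested. The 5 genes had between 671 and 14755 counts in a library, at a relative depth between 0.797 and 1.14. Whether the mutants lack dgcr8 transcript was not analysed here. Replicate 3 of both genotypes was unlike replicates 1 and 2, with 52 of 67 genes past an adjusted p of 0.05 between the sets in edgeR (77.6%). This split was chosen with earlier results of these data known. The count therefore describes the size of the split and is no independent evidence for it. The values of the 5 genes are also given by replicate set.

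The cullin receptor dcaf8 was 2.63-fold higher in MZdgcr8 embryos, with no overlap between MZdgcr8 and wild-type values, as for 17.9% of the 67 genes. In edgeR at the authors' depth it passed the test with a replicate block, as did 7.46% of the genes, but not without one. Both outcomes changed with the scaling, and the call with the block was also lost with no filter or without replicate 1. The E2 enzyme ube2h and the E3 ligase mycbp2 had similar means in both genotypes and were not called. The E3 ligase g2e3 and the deubiquitinase usp49 were lower in MZdgcr8 embryos in replicates 1 and 2, while in replicate 3 g2e3 was at nearly the same level in both genotypes and usp49 was higher in MZdgcr8. The plot of FPKM in each library shows these values by enzyme class.

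**Figure D1:**
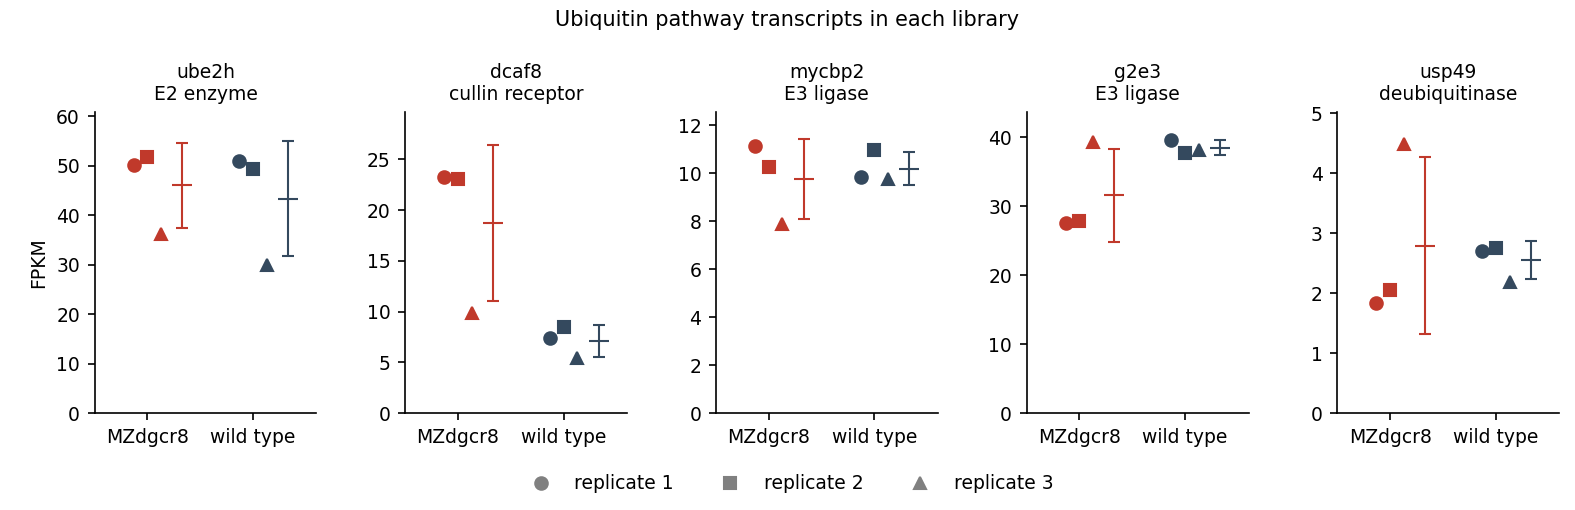
FPKM (y axis, from 0) of each gene in the 3 MZdgcr8 and the 3 wild-type libraries; circles, squares and triangles are replicates 1, 2 and 3, and the bar beside them is the mean ± SD. The MZdgcr8 values of dcaf8 (9.83 to 23.2 FPKM) all lie above its wild-type values (5.41 to 8.52 FPKM), while the groups overlap for the other 4 genes.

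Among the E2 enzymes, which accept ubiquitin from the E1 and hand it to a ligase, ube2h was the gene present in the table. In human cells and in yeast its protein works with the ligase complex known as CTLH or GID. It had 50.1, 51.8 and 36.2 FPKM in MZdgcr8 replicates 1, 2 and 3, against 50.8, 49.3 and 29.9 FPKM in wild type. The groups overlapped, and replicate 3 was the low library of each. The means were 46.0 ± 8.57 FPKM in MZdgcr8 and 43.3 ± 11.7 FPKM in wild type (SD, n = 3 each). The edgeR log2 change was 0.087 ± 0.32 SE (adjusted p = 0.917), with a 95% interval from -0.68 to 0.85. Within replicates 1 and 2 it was 0.026 with an interval from -0.12 to 0.17, so a difference of the size seen for dcaf8 lies outside the interval in these 4 libraries.

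The gene dcaf8 encodes a WD-repeat protein that, in human cells, links substrates to the DDB1 and CUL4 ligase. It had 23.2, 23.1 and 9.83 FPKM in MZdgcr8 replicates 1, 2 and 3, against 7.43, 8.52 and 5.41 FPKM in wild type. Each MZdgcr8 library was higher than the wild-type library of the same number, by 3.13-fold, 2.71-fold and 1.82-fold. A difference in the same direction in 3 of 3 same-numbered pairs was found for 62.7% of the 67 genes and for 1 of the 5. Of the 5 genes, dcaf8 was also the 1 whose groups were fully separate. Such separation was seen for 17.9% of the 67 genes, with MZdgcr8 the higher group for 8.96% and the lower group for 8.96%. The means were 18.7 ± 7.69 FPKM in MZdgcr8 and 7.12 ± 1.58 FPKM in wild type (SD, n = 3 each).

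In edgeR without a block, dcaf8 had the second smallest unadjusted p of the 67 genes (0.0176) and a log2 change of 1.39 ± 0.44 SE, 2.63-fold higher, and it did not pass after adjustment (adjusted p = 0.559). With edgeR, 0 of the 67 genes passed (0%) and 5 had an unadjusted p under 0.05; DESeq2 and limma also called 0. With the replicate number as a block, which compares libraries of the same number, 5 of 67 genes passed (7.46%), and dcaf8 was the 1 of the 5 ubiquitin pathway genes among them. Its log2 change was then 1.32 ± 0.20 SE, 2.49-fold higher (adjusted p = 0.0321, higher in 3 of 3 pairs), with a 95% interval from 0.79 to 1.84. That the numbers pair the libraries was inferred from the data and rests on replicate 3. This call was lost without replicate 1 (log2 1.15, adjusted p = 0.0794), with TMM scaling (1.37, adjusted p = 0.0523) and with no filter on low values (1.32, adjusted p = 0.0782). It was kept under RLE scaling (1.40, adjusted p = 0.0156), in limma (1.21, adjusted p = 0.0280) and in DESeq2 (1.32, adjusted p = 1.24e-06). It was also kept with counts divided by 4 (1.32, adjusted p = 0.0311), without replicate 2 (1.25, adjusted p = 0.00246) and without replicate 3 (1.54, adjusted p = 0.0125). It was gained without the block under RLE scaling (1.42, adjusted p = 0.0357) and without MZdgcr8 replicate 3 (1.70, adjusted p = 0.0490). With replicate set (replicate 3 or the other replicates) as a term in place of the block, edgeR called 26 of 67 genes (38.8%), and dcaf8 was again the 1 of the 5 among them (log2 1.31 ± 0.17 SE, adjusted p = 0.0131). The direction was the same in all of these settings.

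**Figure D2:**
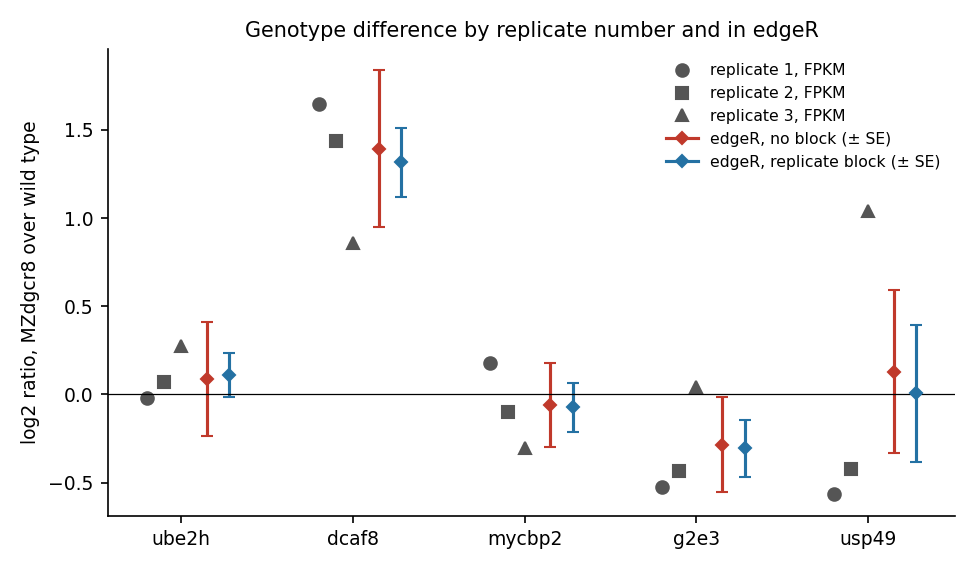
Log2 ratio of MZdgcr8 to wild type (y axis) for each gene; grey symbols are FPKM ratios of same-numbered libraries, red diamonds the edgeR estimate without a block and blue diamonds that with the replicate block, each ± SE. For dcaf8 the 3 ratios run from 0.86 to 1.64, while the ratios lie on both sides of 0 for the other 4 genes.

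The E3 ligases of the table belong to different families. The protein of mycbp2, called Esrom in zebrafish, is a very large ligase known for axon guidance in the zebrafish visual system. Its effective transcript length was 5.19 times that of the median gene, second of the 99, so its 8502 to 14755 counts per library correspond to modest FPKM values.

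It had 11.1, 10.3 and 7.90 FPKM in MZdgcr8 replicates 1, 2 and 3, against 9.84, 11.0 and 9.74 FPKM in wild type. The groups overlapped, and MZdgcr8 replicate 3 was the lowest of the 6. The means were 9.76 ± 1.67 FPKM in MZdgcr8 and 10.2 ± 0.687 FPKM in wild type (SD, n = 3 each). The edgeR log2 change was -0.061 ± 0.24 SE (adjusted p = 0.917), with a 95% interval from -0.63 to 0.51, and within replicates 1 and 2 it was 0.040 (interval from -0.15 to 0.23). The highest of its 6 values was 1.41 times the lowest, the sixth smallest such span of the 67 genes, for which the median was 2.94.

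The gene g2e3 encodes a nuclear ligase with PHD fingers and a HECT domain, named in human cells for expression late in the cell cycle and required in mice for early embryonic survival. It had 27.5, 27.9 and 39.3 FPKM in MZdgcr8 replicates 1, 2 and 3, against 39.6, 37.7 and 38.1 FPKM in wild type. MZdgcr8 replicates 1 and 2 lay below the wild-type values, and MZdgcr8 replicate 3 lay among them. The means were 31.6 ± 6.70 FPKM in MZdgcr8 and 38.5 ± 1.04 FPKM in wild type (SD, n = 3 each), so that MZdgcr8 was the more variable group.

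Over all 6 libraries the log2 change of g2e3 was -0.29 ± 0.27 SE without the block and -0.31 ± 0.16 SE with it, with no call in edgeR (adjusted p = 0.898 and 0.266). Within replicates 1 and 2, 64.2% of the 67 genes were called, 23.9% higher and 40.3% lower. There g2e3 fell by 0.48 on the log2 scale (SE 0.068, adjusted p = 0.00129 in edgeR without pairing). It was 1.40-fold lower in these MZdgcr8 libraries.

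The deubiquitinase gene usp49 encodes a protease that in human cells removes ubiquitin from histone H2B. It was the lowest of the 5 genes in each library, with 1.83, 2.05 and 4.48 FPKM in MZdgcr8 replicates 1, 2 and 3, against 2.71, 2.75 and 2.18 FPKM in wild type. MZdgcr8 replicates 1 and 2 were the lowest of the 6 libraries and MZdgcr8 replicate 3 the highest. The means were 2.79 ± 1.47 FPKM in MZdgcr8 and 2.55 ± 0.319 FPKM in wild type (SD, n = 3 each). The edgeR log2 change was 0.13 ± 0.46 SE over all libraries (adjusted p = 0.917) and 0.0064 ± 0.39 SE with the block (adjusted p = 0.999).

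Within replicates 1 and 2, usp49 fell by 0.49 on the log2 scale (SE 0.097, adjusted p = 0.00514 in edgeR without pairing), 1.41-fold lower in MZdgcr8. The count behind its value was 1507 in MZdgcr8 replicate 3, the highest count, and 671 in wild type replicate 3, the lowest count. Counts are not corrected for depth, and wild type replicate 3 had the lowest relative depth (0.797). In FPKM the lowest library was MZdgcr8 replicate 1 (1.83), with 2.18 in wild type replicate 3.

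Replicates 1 and 2 alone gave calls for 3 of the 5 genes, where 64.2% of all 67 genes were called, so the share among the 5 was near the background. The increase of dcaf8 there was 1.54 ± 0.098 SE on the log2 scale, 2.90-fold (adjusted p = 8.05e-05 in edgeR). The other calls were g2e3 and usp49. The gene ube2h had no call there, except under RLE scaling (log2 0.17, adjusted p = 0.0380). The error of this fit comes from replicates that are close to each other. The biological coefficient of variation was 8.40% in these 4 libraries, against 54.5% over all 6 libraries. The p-values of dcaf8, g2e3 and usp49 in replicates 1 and 2 therefore do not show how far the difference varies among further libraries.

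The change of the genotype difference between replicate 3 and replicates 1 and 2 was tested as an interaction in edgeR, which called 28 of 67 genes (41.8%) and 3 of the 5. For usp49 the log2 ratio of MZdgcr8 to wild type was 1.04 in replicate 3 and -0.49 in replicates 1 and 2, a change of 1.53 ± 0.19 SE (adjusted p = 0.00121). For g2e3 it was 0.043 in replicate 3 and -0.48 in replicates 1 and 2, a change of 0.53 ± 0.10 SE (adjusted p = 0.00865). For dcaf8 the ratio was positive in both sets, 0.86 in replicate 3 and 1.54 in replicates 1 and 2, a change of -0.68 ± 0.18 SE (adjusted p = 0.0228).

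The changes of ube2h (0.25 ± 0.099 SE, adjusted p = 0.0755) and mycbp2 (-0.34 ± 0.13 SE, adjusted p = 0.0715) were not called in edgeR. The sign of the genotype ratio was opposite in the sets for 3 of the 5 genes (g2e3, usp49 and mycbp2), against 31.3% of the 67 genes. The genotypes were almost equal for g2e3 in replicate 3 (log2 0.043) and for mycbp2 in replicates 1 and 2 (0.040). Their opposite signs therefore show no reversal, and the share is no sign of an excess among the 5. With a single replicate 3 library for each genotype, the error of these changes comes from the other replicates.

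**Figure D3:**
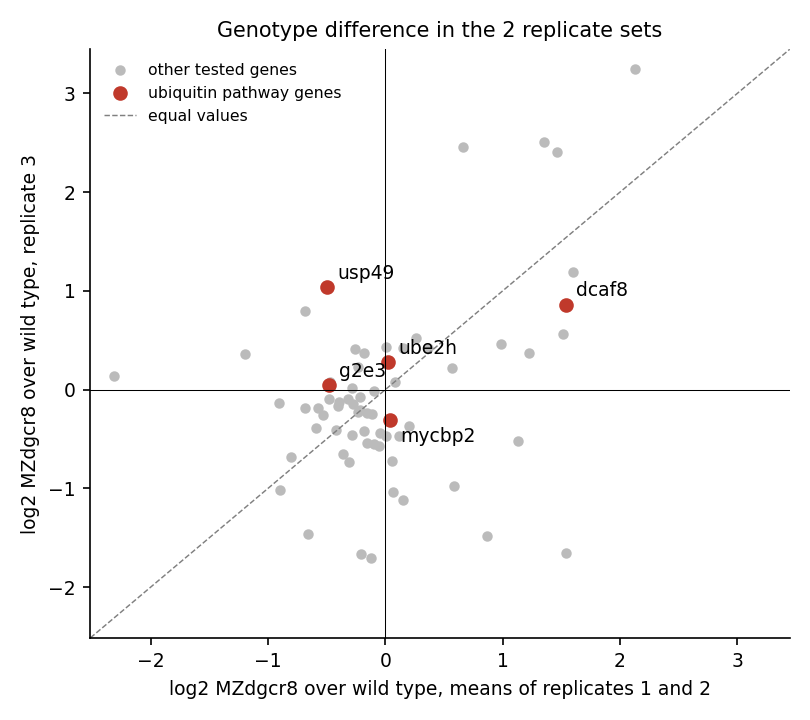
Log2 ratio of MZdgcr8 to wild type in replicate 3 (y axis) against that of the mean FPKM of replicates 1 and 2 (x axis) for the 67 genes; red points are the 5 ubiquitin pathway genes, grey points the others and the dashed line marks equal values. The gene dcaf8 lies above 0 in both sets (0.86 in replicate 3, 1.54 in replicates 1 and 2), usp49 above 0 in replicate 3 (1.04) and below it in replicates 1 and 2 (-0.49), and ube2h and mycbp2 lie near 0 on the x axis.

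Replicate 3 itself differed from replicates 1 and 2 in unlike ways among the 5 genes. In replicate 3, ube2h was at 0.710 of the mean of replicates 1 and 2 in MZdgcr8 and at 0.597 of it in wild type. The gene dcaf8 was at 0.425 of that mean in MZdgcr8 and at 0.679 in wild type, and mycbp2 at 0.739 and 0.936. In contrast, g2e3 was at 1.42 times the mean in MZdgcr8 and at 0.986 in wild type, and usp49 at 2.31 times the mean in MZdgcr8 and at 0.798 in wild type.

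With genotype in the model, ube2h (log2 -0.62 ± 0.096 SE, adjusted p = 0.00293) and dcaf8 (-0.89 ± 0.19 SE, adjusted p = 0.00834) were called lower in replicate 3 in edgeR, where 62.7% of the 67 genes were called lower. Both calls depended on the scaling, and so did the direction of ube2h (0.026 with RLE), while dcaf8 stayed lower (-0.24 with RLE). TMM and RLE set the scale from genes of this table alone, and 77.6% of the 67 were called between the sets at the authors' depth. Which scaling is nearer to the RNA levels was not tested. The median of the 67 genes moved by -0.78 between the sets at the authors' depth and by -0.25 with TMM. With TMM the values were -0.093 for ube2h and -0.35 for dcaf8, with no call, and g2e3 (0.77) and usp49 (1.02) were called higher. This model gives 1 shift for both genotypes, which hides a difference between them. In FPKM, on the log2 scale, usp49 shifted by 1.21 in MZdgcr8 and by -0.33 in wild type. The shift of g2e3 was 0.51 in MZdgcr8 and -0.020 in wild type. Replicate 3 was the lowest library of both genotypes for ube2h, dcaf8 and mycbp2, 3 of the 5, against 67.2% of the 67 genes.

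**Figure D4:**
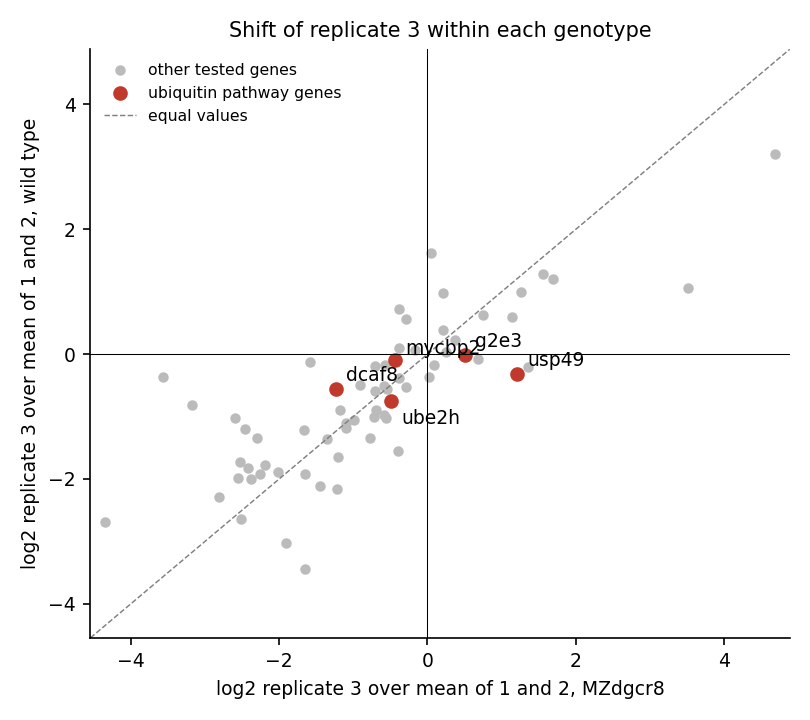
Log2 ratio of replicate 3 to the mean of replicates 1 and 2 in wild type (y axis) against the same in MZdgcr8 (x axis) for the 67 genes; red points are the 5 ubiquitin pathway genes, grey points the others and the dashed line marks equal shifts. Over all 67 genes the median shift was -0.71 in MZdgcr8 and -0.58 in wild type; usp49 shifted by 1.21 in MZdgcr8 and by -0.33 in wild type.

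The order of the levels, in FPKM, differed between the genotypes for 1 pair of the 5 genes. In MZdgcr8 libraries dcaf8 stood above mycbp2, at 2.08, 2.25 and 1.24 times its level in replicates 1, 2 and 3. In wild type it stood below mycbp2, at 0.755, 0.776 and 0.556 times its level. An exchange of this kind, one way in all 3 MZdgcr8 libraries and the other way in all 3 wild-type libraries, was seen for 48 of the 2211 pairs of the 67 genes (2.17%). Those pairs include genes far apart in level, whereas dcaf8 and mycbp2 ranked 32 and 36 of the 67 by mean FPKM. The share is therefore no measure of how rare an exchange is between genes of similar level. Above this pair, ube2h led in replicates 1 and 2 of both genotypes and g2e3 led in replicate 3 of both, so the order of these neighbours changed with the replicate set. Over all 6 libraries ube2h ranked eleventh of the 67 genes by mean FPKM, at 44.7 FPKM, and g2e3 fifteenth, at 35.0 FPKM, while usp49 was among the lowest at 2.67 FPKM.

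Ratios between genes of 1 library do not depend on how libraries are scaled to each other, so each gene was also set against ube2h. The ratio of dcaf8 to ube2h was 0.464, 0.445 and 0.272 in MZdgcr8 replicates 1, 2 and 3, against 0.146, 0.173 and 0.181 in wild type. The groups did not overlap. A ratio to ube2h that was higher in MZdgcr8 with no overlap was found for 7.58% of the other 66 genes, dcaf8 included. This share counts 1 direction alone, and the share in either direction, which cannot be smaller, is not given here. For FPKM itself, groups were separate for 17.9% of the 67 genes in either direction and for 8.96% with MZdgcr8 higher. The ratio of g2e3 to ube2h was 0.549, 0.538 and 1.09 in MZdgcr8 replicates 1, 2 and 3, against 0.780, 0.764 and 1.28 in wild type. It overlapped between the genotypes but was lower in MZdgcr8 in 3 of 3 same-numbered pairs. In replicate 3, g2e3 itself was not lower, at 1.03 times its wild-type level, while ube2h was at 1.21 times. A ratio to ube2h that went 1 way in 3 of 3 pairs was found for 2 of the other 4 genes, dcaf8 and g2e3, against 66.7% of the 66 genes. The ratios of mycbp2 and usp49 to ube2h overlapped between the genotypes and went both ways among the pairs. The ratio of usp49 to g2e3 was 0.0665 and 0.0737 in MZdgcr8 replicates 1 and 2, close to the 0.0683 and 0.0731 of wild type, and 0.114 in MZdgcr8 replicate 3 against 0.0572 in wild type replicate 3. The deubiquitinase and this ligase were thus lower by similar factors in replicates 1 and 2, and parted in replicate 3.

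**Figure D5:**
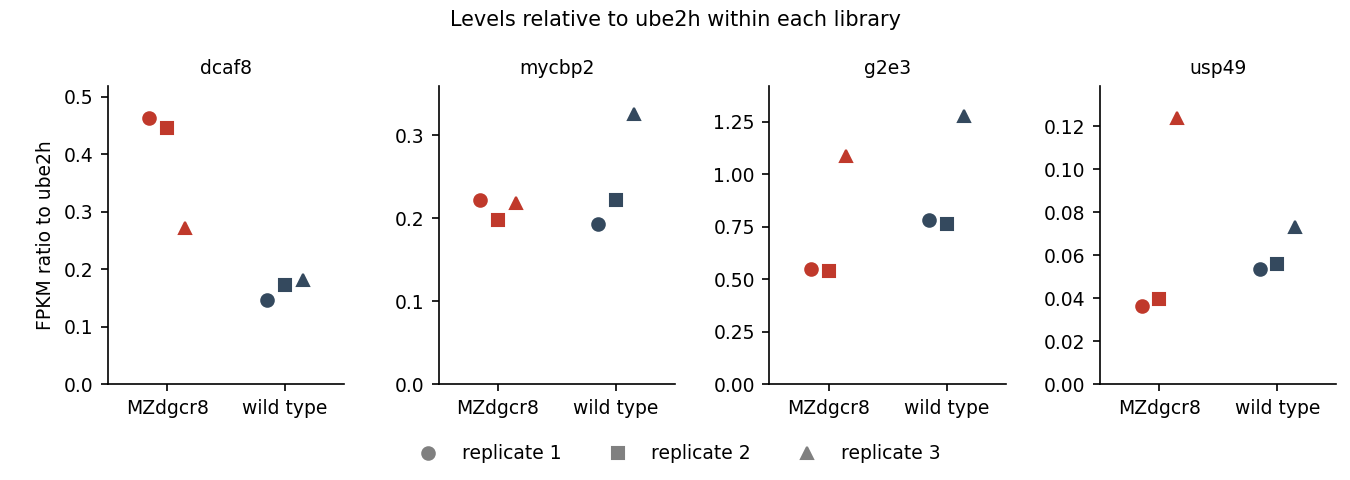
FPKM of each gene divided by that of ube2h in the same library (y axis, from 0) in the MZdgcr8 and wild-type libraries; circles, squares and triangles are replicates 1, 2 and 3. For dcaf8 the MZdgcr8 ratios (0.272 to 0.464) lie above the wild-type ratios (0.146 to 0.181), and for g2e3 replicate 3 is the highest library of both genotypes (1.09 in MZdgcr8, 1.28 in wild type).

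The genes with the most similar profiles were found by the root mean square difference of log2(FPKM + 1), centred on each gene's mean, over the 6 libraries, which share the set difference of replicate 3. For dcaf8 they were gtf2e1, a subunit gene of general transcription factor TFIIE (0.28), and the tyrosine phosphatase gene ptpn4a (0.35), with a median of 0.81 over the other genes. For usp49 the nearest was g2e3 (0.23), followed by the membrane glycoprotein gene gpm6bb (0.26). For g2e3 they were the splicing factor gene puf60b (0.089) and gpm6bb (0.13). For mycbp2 they were the non-muscle myosin gene myh10 (0.080) and the kinase gene dstyk (0.090). For ube2h they were the zinc finger gene znf384l (0.11) and the polarity gene scrib (0.13). The farthest apart of the 5 genes were dcaf8 and g2e3 (0.95). The added 1 FPKM shrinks differences between libraries for genes at low levels, such as usp49 and znf384l (1.17 to 2.40 FPKM). Their distances to g2e3 and ube2h therefore do not show equal fold changes. In replicate 3 the log2 ratio of MZdgcr8 to wild type was 1.04 for usp49 and 0.043 for g2e3.

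Of 434 genes of ubiquitin activation, conjugation, ligation, deubiquitination and the proteasome listed for this comparison, 5 were in the table used here, the 5 genes already described. The list was not complete. Outside it, and chosen after their values were seen, the table holds the catalytic immunoproteasome subunit genes psmb8a, psmb9a and psmb10, all under a mean of 1 FPKM and not tested. The gene psmb9a had 1.25, 0.919 and 0.788 FPKM in MZdgcr8 replicates 1, 2 and 3, against 0.804, 0.843 and 0.808 FPKM in wild type. The gene psmb8a had 0.738, 0.793 and 0.180 FPKM in MZdgcr8, against 0.505, 0.420 and 0.732 FPKM in wild type, so that MZdgcr8 was the higher group in replicates 1 and 2 and the lower in replicate 3. These values rest on 20 to 115 counts in a library, with the 20 in MZdgcr8 replicate 3. The gene psmb10 had 0.0956 and 0.0787 FPKM in MZdgcr8 replicates 1 and 3 and was listed at 0 in the other 4 libraries. The gene pcgf1, whose protein is a RING-finger subunit of a Polycomb complex that ubiquitinates histone H2A, was at 7.33 ± 3.41 FPKM in MZdgcr8 and 8.27 ± 5.02 FPKM in wild type (SD, n = 3 each), with no call between the genotypes in edgeR (log2 -0.17 ± 0.69 SE, adjusted p = 0.917). By set, its log2 ratio of MZdgcr8 to wild type was 0.41 in replicate 3 and -0.26 in replicates 1 and 2 (interaction 0.67 ± 0.22 SE, adjusted p = 0.0517 in edgeR, no call).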

How the data were processed

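The authors deposited FPKM and whole-number counts per gene and library in 1 table, per the file headers, which name no normalization of the counts. The submitters' processing notes list Bowtie 0.12.2, HISAT2 2.0 and StringTie 1.3.0 without a role, beside mm8, a mouse build. No coordinates are printed, because the sources used here do not give the zebrafish build, the annotation or how reads shared between genes were counted. The identifiers of 99 of 99 genes were matched in a table of gene names. Column totals of a 99-gene table (358811 to 576050 counts) are not depths. Relative depth was therefore taken from count divided by FPKM, using the 58 genes above 200 counts in all libraries (largest deviation 0.0048 on the log2 scale), and used as library size. The counts skip the values 1 to 3, while 11 of them are 4 and 33 are 0. A unit of count may therefore differ from a read, and no counting intervals or floors are given.

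Genes averaging 1 FPKM or more were tested with edgeR 4.0.16 (quasi-likelihood, R 4.3.3), two-sided, with Benjamini-Hochberg adjustment over all 67 and a threshold of 0.05. Standard errors and 95% intervals come from the F statistic. The fits without a block and with the replicate block, and no others, were checked on simulated counts. Those counts had less spread than the data and did not set replicate 3 apart, so the check does not cover these features. DESeq2 1.42.0 and limma 3.58.1 on log2(FPKM + 1) were alternatives, with other pseudocounts (0.1 and 5), filters, scalings (TMM, RLE), counts divided by 4 and libraries left out. The meaning of a replicate number is not stated. For same-numbered libraries of the genotypes, deviations from the group mean correlated over genes at 0.77, 0.76 and 0.80, so the numbers were treated as pairing them; replicates 1 and 2 also correlated across numbers (0.82 and 0.71), so this rests on replicate 3. Replicates 1 and 2 of a genotype correlated at 0.996 and were kept as separate samples. They differed by more than counting noise if 1 count is 1 read, which is not known here. The members, lists and tests were chosen with earlier results of these data known. The genes named are the 5 members, every listed ubiquitin gene in the table and the 2 nearest profiles of each member; the immunoproteasome genes and pcgf1 fall outside this rule.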

Additional observations from a re-analysis of the deposited data

Results flagged for a closer look

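The genotype difference in replicate 3 lay apart from that in replicates 1 and 2 for 3 of the 5 genes, by the interaction term in edgeR, against 41.8% of the 67 genes. The error of this term comes from replicates 1 and 2, which are close to each other (biological coefficient of variation 8.39%, against 54.5% over all 6 libraries), and replicate 3 has 1 library per genotype that no setting could leave out. The calls therefore do not show how far the difference varies among further libraries, and their recurrence across settings is no sign of stability. The change was 1.53 on the log2 scale for usp49, which was higher in MZdgcr8 in replicate 3 and lower in replicates 1 and 2, and it ran from 1.13 to 1.62 over 9 alternative settings. It was 0.53 for g2e3 and ran from 0.36 to 0.56, with the call lost under TMM scaling (0.36, adjusted p = 0.0501). It was -0.68 for dcaf8, higher in MZdgcr8 in both sets, and ran from -0.84 to -0.58, with the call lost without MZdgcr8 replicate 1 (-0.67, adjusted p = 0.0508). For usp49, MZdgcr8 replicate 3 was the highest of the 6 libraries, at 4.48 FPKM against 2.18 FPKM in wild type replicate 3. For g2e3, MZdgcr8 replicate 3 lay among the wild-type values, at 39.3 FPKM against 38.1 FPKM in wild type replicate 3. A batch of embryos or libraries was not tested, since the labels give none.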

How the results depend on the processing

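The genotype comparison without the block gave 0 called genes, also with TMM, DESeq2, limma (3 pseudocounts), other filters and counts divided by 4. RLE scaling gave 2, the replicate block 5, the block with TMM 4, in limma 6 and in DESeq2 11 (7 higher, 4 lower), and replicate set as a term 26. Leaving out libraries gave 0 to 43 calls: 3 without MZdgcr8 replicate 3, and 43 without replicate 3 of both genotypes. With the block, 5 calls became 0 with no filter, and 4 to 35 with a replicate number left out (35 without replicate 3 and 8 without replicate 2). The block changed the call of dcaf8 and of no other gene of the 5.

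With a minimum of 5 FPKM usp49 was not tested. The value of dcaf8 was positive in every setting (log2 0.92 to 1.70). Some other values changed sign. Without the block, leaving out libraries moved ube2h from -0.12 (without wild type replicate 3) to 0.23, with -0.0064 without MZdgcr8 replicate 2. It moved mycbp2 from -0.19 to 0.071 (without MZdgcr8 replicate 3; 0.040 without replicate 3 of both), and usp49 from a called -0.49 (without replicate 3; -0.39 without MZdgcr8 replicate 3) to 0.41. With the replicate block mycbp2 was at 0.041 and usp49 at -0.49 without replicate 3, and mycbp2 at 0.0093 under RLE. The shift of replicate 3, -0.26 for mycbp2 and a called -0.62 for ube2h at the authors' depth, became 0.27 (TMM) and 0.38 (RLE, called) for mycbp2 and 0.026 (RLE) for ube2h; the change of the genotype difference of mycbp2 was called under TMM (-0.51) and without MZdgcr8 replicate 1 (-0.28) or 2 (-0.40), and that of ube2h in limma (0.24).

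Scaling moved the split of calls. In replicates 1 and 2 it was 16 higher and 27 lower, 21 and 20 with TMM, and 22 and 19 with RLE. For replicate 3 against the others it was 10 and 42, 19 and 27 with TMM, and 24 and 24 with RLE. For the interaction it was 11 and 17, 9 and 27 with TMM, and nearly unchanged with RLE (12 and 17). The cause of these changes was not tested.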
